A study of Mus musculus with 16 samples.

Results

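Calmodulin and CaMKII pathway genes were followed in cortical tissue of mice with a mutant tau transgene and with both, 1 or no Trem2 allele. The set held 9 genes: the calmodulin genes Calm2 and Calm3, the calmodulin-binding proteins Nrgn and Gap43, the CaMKII subunit genes Camk2a, Camk2b, Camk2d and Camk2g, and Camk4. They were taken by symbol from 24060 listed genes, and all 9 were among the 12015 genes with a mean of at least 1 RPKM (reads scaled to gene length and library size). The genes were selected on measured values of the same 16 libraries, with the differences between tau mice and controls already known, so differences from control are given below as a description, and nothing is read from any count past a threshold in them. The 3 comparisons among tau mice were tested. They use no control library, but their tau libraries were also in the contrasts known at selection, so these tests are not independent of it.

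The study asked how partial and complete loss of the microglial receptor TREM2 act on tau pathology. All mice had the strain label C57BL/6; C3 and were 8 to 9 months old, with 2 females and 2 males per genotype. Control mice (TREM2+/+, 4 mice) had no P301S label and both Trem2 alleles. The P301S+ TREM2+/+ mice, the P301S+ TREM2+/- mice (heterozygotes) and the P301S+ TREM2-/- mice (knockouts), 4 of each, were labelled for the P301S mutation, which lies in the microtubule-binding region of tau. A TREM2-/- group without P301S is not among these samples, and the labels give neither the promoter of the transgene, nor the kind of Trem2 allele, nor litters or batches. Replicates 2 and 3 were the females among the controls, and replicates 1 and 2 in each tau genotype. Replicate numbers follow the order of deposit and pair no animals.

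Calmodulin is a small calcium sensor with EF-hand loops that bind calcium, and several genes encode the same protein. Neurogranin (Nrgn) in dendrites and GAP-43 (Gap43) in axons and growth cones hold calcium-free calmodulin through an IQ motif and release it when calcium rises or when protein kinase C phosphorylates them. Calcium-loaded calmodulin activates CaMKII, a kinase of many subunits that is abundant at excitatory synapses of the forebrain and is needed for long-term potentiation, and CaMKIV (Camk4), a mostly nuclear kinase that phosphorylates CREB.

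Stretches of coding sequence show what these genes share and how their reads can be told apart. Sequences and positions are from the GENCODE annotation of GRCm38, which is mm10, the build named in the submitters' processing notes. The first set is the first EF-hand loop of calmodulin, coding exon sequence from codon 21 on, at chr17:87435873-87435908 (Calm2) and chr7:16917667-16917702 (Calm3), both on the minus strand. Capitals mark the 7 of 36 bases that differ between the genes; every one of these differences is silent.
Calm2: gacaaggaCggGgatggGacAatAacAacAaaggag
Calm3: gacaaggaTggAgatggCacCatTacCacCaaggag
Over their 447 coding bases Calm2 and Calm3 were 82.6% identical, and the encoded protein was the same. A difference between them in these libraries is therefore a difference between transcripts of 1 protein. The second set is the autoinhibitory and calmodulin-binding segment of CaMKII, which spans an exon junction, at chr11:5988138-5989011 on the minus strand (Camk2b), chr3:126797729-126798243 on the plus strand (Camk2d) and chr14:20760181-20760453 on the minus strand (Camk2g). Capitals mark the codon of the threonine whose autophosphorylation keeps the kinase active after calcium has fallen.
Camk2b: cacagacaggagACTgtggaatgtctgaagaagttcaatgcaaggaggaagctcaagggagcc
Camk2d: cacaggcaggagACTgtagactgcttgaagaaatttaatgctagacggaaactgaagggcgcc
Camk2g: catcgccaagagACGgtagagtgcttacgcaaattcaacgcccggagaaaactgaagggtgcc
These libraries read transcripts near their poly(A) ends. Neither Calm2 and Calm3, nor any pair of the CaMKII subunit genes, nor Nrgn and Gap43 shared a stretch of 30 bases in the last 300 bases of the annotated transcript compared (1 per gene), so reads placed there can be assigned to 1 gene of these. Over the last 2000 bases of each of the 9 genes, no overlapping annotated gene was found.

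The libraries held 2552467 to 14473181 reads, recovered as whole reads from the deposited values. Each member was covered by at least 300 reads in every library (Camk2d, the lowest), and, with no molecular identifiers, read numbers bound counting error only. Control replicate 3 stood apart from the other 15 libraries: it lay at -131 on the first principal component of all genes against -18.8 to 23.5 elsewhere, and small nucleolar RNA genes took 758 RPM (reads scaled to library size alone) against 20.3 to 67.2. The 2 P301S+ TREM2+/+ females lay apart on the second component (-45.0 and -41.3, against -12.5 to 21.4). Trem2 itself measured 12.4 ± 5.53 RPKM in controls, 27.0 ± 8.69 in P301S+ TREM2+/+ mice, 12.9 ± 8.98 in heterozygotes and 2.09 ± 1.11 in knockouts (SD, n = 4 each). The 10 excitatory neuron markers were above 0 in every library, which does not tell cortex from other forebrain regions. The sum of 7 striatal markers ranged from 184 to 1444 RPKM over the 16 libraries.

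Camk2a and Nrgn, whose products are abundant in dendrites of excitatory neurons, and Gap43 and Calm3 had lower means in all 3 tau genotypes than in controls, and Camk2b a higher one. Among the tau genotypes, no member passed the test. Camk2g had the largest log2 difference, 0.70, with means of 46.5 ± 15.04 RPKM in P301S+ TREM2+/+ mice and 73.5 ± 13.0 in knockouts (SD, n = 4). By sex that difference was 1.14 in females and 0.25 in males. Camk4 had the lowest limma adjusted p of the members in the same comparison, 0.502.

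Calm2 measured 3653, 2812, 579 and 3019 RPKM in control replicates 1 to 4, and 1952, 2433, 3451 and 3309 in P301S+ TREM2+/+ mice. In heterozygotes it measured 3561, 3094, 2550 and 2847 RPKM, and in knockouts 3436, 3367, 4305 and 3085. Control replicate 3 was the lowest of all libraries, and the next lowest were the 2 P301S+ TREM2+/+ females; the other libraries overlapped between genotypes. The log2 difference of P301S+ TREM2+/+ mice from control was 0.40 with all libraries and -0.18 without control replicate 3, so that its sign rested on that library. Against P301S+ TREM2+/+ mice the log2 difference was 0.14 ± 0.42 (SE) in heterozygotes and 0.38 ± 0.42 in knockouts. Neither passed (limma adjusted p = 0.9996 and 0.793). Control replicate 3, in neither comparison, entered these SEs through the shared estimate of the spread. Without it both SEs were 0.18 and neither difference passed (limma adjusted p = 0.80 and 0.21).

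Calm3 encodes the same protein and showed another pattern. It measured 421, 553, 367 and 261 RPKM in controls, and 216, 196, 185 and 264 in P301S+ TREM2+/+ mice. Heterozygotes gave 239, 239, 237 and 201 RPKM and knockouts 286, 231, 267 and 356. Control replicates 1, 2 and 3 lay above every P301S+ TREM2+/+, heterozygous and knockout library, whereas control replicate 4, at 261 RPKM, lay below the highest P301S+ TREM2+/+ library and above all heterozygotes. The group means were 400 ± 122 RPKM in controls, 215 ± 34.8 in P301S+ TREM2+/+ mice, 229 ± 18.6 in heterozygotes and 285 ± 52.2 in knockouts (SD, n = 4). Calm3 was inside the range of the other libraries in control replicate 3, and its log2 differences from control with and without that library were -0.86 and -0.89 for P301S+ TREM2+/+ mice, -0.76 and -0.79 for heterozygotes, and -0.46 and -0.49 for knockouts. With each library left out in turn the difference in knockouts ranged from -0.65 without control replicate 4 to -0.28 without control replicate 2. Knockouts differed from P301S+ TREM2+/+ mice by 0.40 ± 0.22 and from heterozygotes by 0.30 ± 0.22 on the log2 scale (SE), neither past the threshold (limma adjusted p = 0.556 and 0.9999).

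Calm2 and Calm3 together took 0.151% of reads in control replicate 3, against 0.285% to 0.582% in the other 15 libraries.

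Nrgn measured 2969, 5742, 7950 and 2601 RPKM in controls, and 2022, 3053, 1669 and 3124 in P301S+ TREM2+/+ mice. It measured 4151, 3082, 2844 and 1194 RPKM in heterozygotes, and 4000, 1970, 2373 and 2887 in knockouts. The 2 control females were the highest of all libraries, and the 2 control males lay inside the range of the tau mice. The log2 difference of P301S+ TREM2+/+ mice from control was -0.86, and -0.66 without control replicate 3; those of heterozygotes were -0.76 and -0.55, and those of knockouts -0.68 and -0.47. The tau genotypes overlapped throughout, with log2 differences of 0.11 ± 0.37 for partial and 0.19 ± 0.37 for complete loss (SE; limma adjusted p = 0.9996 and 0.893). In bulk tissue, fewer cells of a type and less RNA per cell cannot be told apart, for Nrgn and for every gene below.

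Gap43 measured 342, 395, 1237 and 431 RPKM in controls, and 332, 201, 256 and 414 in P301S+ TREM2+/+ mice. Heterozygotes gave 264, 330, 279 and 324 RPKM, all below every control, and knockouts gave 275, 472, 361 and 296. Control replicate 3 held 3.18 times the mean of the other controls. Without it, the log2 difference from control went from -0.84 to -0.41 in P301S+ TREM2+/+ mice, from -0.80 to -0.37 in heterozygotes and from -0.59 to -0.17 in knockouts. Among tau genotypes the differences were 0.04 ± 0.35 and 0.24 ± 0.35 for partial and complete loss (SE; limma adjusted p = 0.9996 and 0.851).

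Camk2a, the alpha subunit of CaMKII, measured 305, 570, 1241 and 300.2 RPKM in controls, and 263, 302, 199 and 283 in P301S+ TREM2+/+ mice. In heterozygotes it measured 312, 295, 258 and 160 RPKM, and in knockouts 306, 230.3, 192 and 260.0. As for Nrgn, the 2 control females were the highest libraries and the 2 control males, at 305 and 300.2 RPKM, lay within the range of the tau mice. The mean was 604 ± 443 RPKM with all 4 controls and 391.7 ± 154 (SD, n = 3) without replicate 3, against 262 ± 44.8, 256 ± 68.1 and 247 ± 48.1 in the 3 tau genotypes (SD, n = 4). The log2 differences from control, -0.96, -1.02 and -1.05 with all libraries, became -0.60, -0.66 and -0.69 without control replicate 3. Among tau genotypes Camk2a differed by -0.06 (95% interval -0.70 to 0.58) for partial, by -0.09 (-0.73 to 0.56) for complete loss and by -0.03 (-0.67 to 0.62) between knockouts and heterozygotes, and none of the 3 passed the threshold (limma adjusted p = 0.9996, 0.940 and 0.9999).

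Camk2b, the beta subunit that binds actin, measured 259, 249.5, 161 and 245 RPKM in controls, and 318, 311, 325 and 312 in P301S+ TREM2+/+ mice. It measured 320.1, 280.3, 196 and 312 RPKM in heterozygotes, and 279, 269, 341 and 319 in knockouts. Every P301S+ TREM2+/+ and knockout library lay above every control, with or without control replicate 3, while heterozygote replicate 3 lay below 3 of the controls. Group means were 228 ± 45.4 RPKM in controls, or 251 ± 6.89 (SD, n = 3) without replicate 3, then 316 ± 6.77, 277 ± 56.7 and 302 ± 33.9 (SD, n = 4) in the tau genotypes. The log2 difference of P301S+ TREM2+/+ mice from control was 0.49, and 0.34 without control replicate 3. Partial and complete loss gave -0.22 ± 0.19 and -0.08 ± 0.19 (SE; limma adjusted p = 0.9996 and 0.921).

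Camk2g, the gamma subunit, measured 82.1, 68.3, 20.3 and 65.8 RPKM in controls, and 26.9, 42.6, 60.0 and 56.4 in P301S+ TREM2+/+ mice. Heterozygotes gave 73.4, 60.6, 59.5 and 49.5 RPKM, and knockouts 88.4, 65.2, 80.0 and 60.2. All knockouts lay above all P301S+ TREM2+/+ mice, by a margin of less than 1 RPKM between the nearest pair, and the low end was formed by the 2 P301S+ TREM2+/+ females. Complete loss gave 0.70 ± 0.34 on the log2 scale (SE; limma adjusted p = 0.530). It was the same without control replicate 3, where the adjusted p was 0.0878, and it was 0.25 (adjusted p = 0.883) when the 2 P301S+ TREM2+/+ females were left out as well. By sex the difference was 1.14 in females and 0.25 in males, and this gap of 0.89 ± 0.62 (SE) did not pass the test for a sex difference (limma adjusted p = 0.855). For partial loss Camk2g gave 0.43 ± 0.34 (adjusted p = 0.9996), which became -0.018 without those 3 libraries. Against control, P301S+ TREM2+/+ mice were at -0.24 with all libraries and at -0.66 without control replicate 3.

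Camk2d, the delta subunit, was the lowest member, with means of 14.3 ± 6.39 RPKM in controls, 14.1 ± 3.02 in P301S+ TREM2+/+ mice, 14.6 ± 1.46 in heterozygotes and 13.2 ± 3.59 in knockouts (SD, n = 4). Its libraries ranged from 6.67 RPKM in control replicate 3 to 22.3 RPKM in control replicate 4, and the 3 tau genotypes overlapped. Its difference from control in P301S+ TREM2+/+ mice changed sign without control replicate 3, from 0.07 to -0.21.

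Camk4 measured 17.0, 21.0, 16.1 and 20.1 RPKM in controls, and 24.3, 27.6, 17.8 and 24.7 in P301S+ TREM2+/+ mice. It measured 24.7, 18.6, 15.4 and 15.7 RPKM in heterozygotes, and 15.8, 16.2, 19.4 and 20 in knockouts. In P301S+ TREM2+/+ mice 3 of 4 libraries lay above every control and every knockout, and replicate 3 lay among them. Complete loss gave -0.37 ± 0.18 on the log2 scale (SE; limma adjusted p = 0.502, the lowest of the 9 members in that comparison) and partial loss -0.34 ± 0.18 (adjusted p = 0.9996). By sex, complete loss gave -0.66 in females and -0.09 in males, a gap of -0.57 ± 0.31 (SE; limma adjusted p = 0.764), and it was -0.28 without control replicate 3 and both P301S+ TREM2+/+ females. Camk4 lay inside the range of the other libraries in control replicate 3, and its difference for P301S+ TREM2+/+ mice from control was 0.32 with that library and 0.23 without it.

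**Figure D1:**
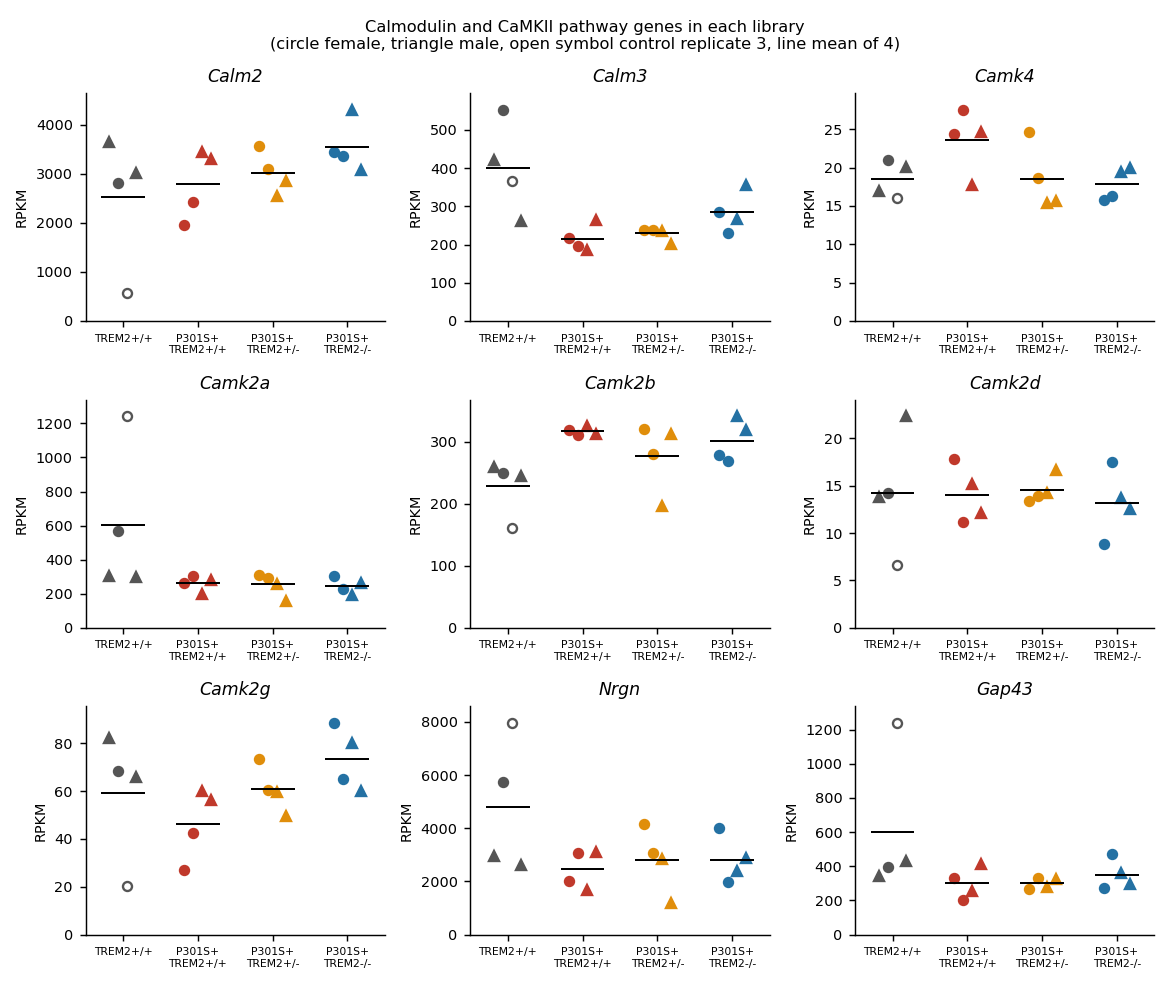
RPKM of each of the 9 genes (vertical axes, from 0) in each library by genotype, with circles for females, triangles for males, an open symbol for control replicate 3 and a line at the mean of 4 mice. Control replicate 3 is the highest library for Camk2a (1241), Nrgn (7950) and Gap43 (1237) and the lowest for Calm2, Camk2b, Camk2d and Camk2g, and the tau genotypes overlap for every gene except Camk2g, where knockouts lie above P301S+ TREM2+/+ mice.

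Control replicate 3 thus lay outside all 15 other libraries for 7 of the 9 members, above them for 3 and below them for 4. That is close to its behaviour over all genes tested, where it lay above all others for 24.9% and below for 41.6%. Compared with the mean of the other controls, it held 3.17 times as much Camk2a, 2.11 times as much Nrgn, 0.183 times as much Calm2 and 0.282 times as much Camk2g. The pan-neuronal marker sum of 10 genes was 4563 RPKM there against 4337 to 4705 in the other controls, and the microglial sum of 10 genes was 1144 RPKM against 304 to 398. Lower than in the other controls were the excitatory (456 against 504.5 to 588.5 RPKM) and inhibitory neuron sums (530 against 652 to 798). So were the hippocampal (20.4 against 44.2 to 67.7) and oligodendrocyte sums (545 against 581 to 708). The astrocyte (2320 against 1629 to 1759) and endothelial sums (39.9 against 24.3 to 28.6) were higher. Striatal and choroid plexus sums lay inside the range of the other controls. The part of these in the members' values was not tested.

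In no comparison did a member pass an adjusted p of 0.05 with all libraries. For the P301S effect (P301S+ TREM2+/+ mice against controls), 0 of 9 members were called beside 0.0% of all genes, and the median log2 difference was -0.24 over the members and 0.06 over all genes. For heterozygotes and knockouts against controls, again 0 of 9 were called beside 0.0% and 0.0% of all genes, with medians of -0.01 and -0.05 against 0.08 and 0.08. The 3 comparisons share their controls, so their values are given side by side and not as separate evidence. Without control replicate 3, 0 of 9 were called beside 0.0418%, 0.0251% and 0.00835% of all genes, the members' medians were -0.41, -0.23 and -0.17, and 7, 8 and 6 members had a negative value, against 5, 5 and 6 with all libraries. At an unadjusted p under 0.05, limma had 1657, 1153 and 1167 of 12015 genes in these 3 comparisons. Groups did not overlap for 1 member in the P301S effect (Camk2b, 4.83% of all genes), 2 in heterozygotes against controls (Calm3 and Gap43, 4.39%) and 1 in knockouts against controls (Camk2b, 3.79%). Without control replicate 3 the counts were 2 (Camk2b, and Camk2g in the lower direction), 2 and 1, beside 12.3%, 10% and 5.54% of all genes, a background that is wider with 3 controls than with 4. Without control replicate 3 and both P301S+ TREM2+/+ females, the P301S effect was -0.47 for Camk2a, -0.41 for Nrgn, -0.23 for Gap43, -0.79 for Calm3, 0.34 for Camk2b and 0.11 for Calm2. Since the members were selected on these contrasts, nothing is read from these counts.

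Among the tau genotypes, 0 of 9 members were called for partial loss (heterozygotes against P301S+ TREM2+/+ mice) beside 0.0% of all genes. For complete loss (knockouts against P301S+ TREM2+/+ mice) 0 of 9 were called beside 0.00832%, which is 1 gene, Trem2. For knockouts against heterozygotes 0 of 9 were called beside 0.0%. The unadjusted p was under 0.05 for 324, 1190 and 411 of all genes in these comparisons. The median log2 difference over the 9 members was 0.06, 0.19 and 0.14, against 0.01, -0.02 and -0.03 over all genes. With 1 library left out the members' median ranged from -0.03 (without heterozygote replicate 1) to 0.16 for partial loss. For complete loss it ranged from 0.02 (without P301S+ TREM2+/+ replicate 2) to 0.40 (without replicate 4). Without control replicate 3 and both P301S+ TREM2+/+ females the medians for partial and complete loss were -0.16 and 0.003. That fit leaves 2 males as the P301S+ TREM2+/+ group. Groups did not overlap for 0 of 9, 1 of 9 (Camk2g) and 0 of 9 members, beside 2.85%, 7.62% and 5.37% of all genes. Without control replicate 3, which enters these comparisons only through the estimate of the spread, the counts stayed at 0 of 9 beside 0.0%, 0.117% and 0.0167%.

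Library weights moved the number of members called. With array weights, in which control replicate 3 counted for 0.045, heterozygote replicate 2 for 4.57 and the other libraries for 0.599 to 1.88, Camk2g passed for complete loss (0.78, adjusted p = 0.0445) beside 5.74% of all genes. With quality weights in limma-voom, an alternative added after seeing the data, Camk2g reached an adjusted p of 0.0611 for complete loss. In the contrasts with control, on which the members were selected, the counts are no test: 1 (Calm3) for the P301S effect beside 1.64% of all genes and 2 (Calm3 and Camk2a) for heterozygotes beside 1.09% with array weights, and 1 (Calm3) for heterozygotes beside 1.22% with voom quality weights.

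**Figure D2:**
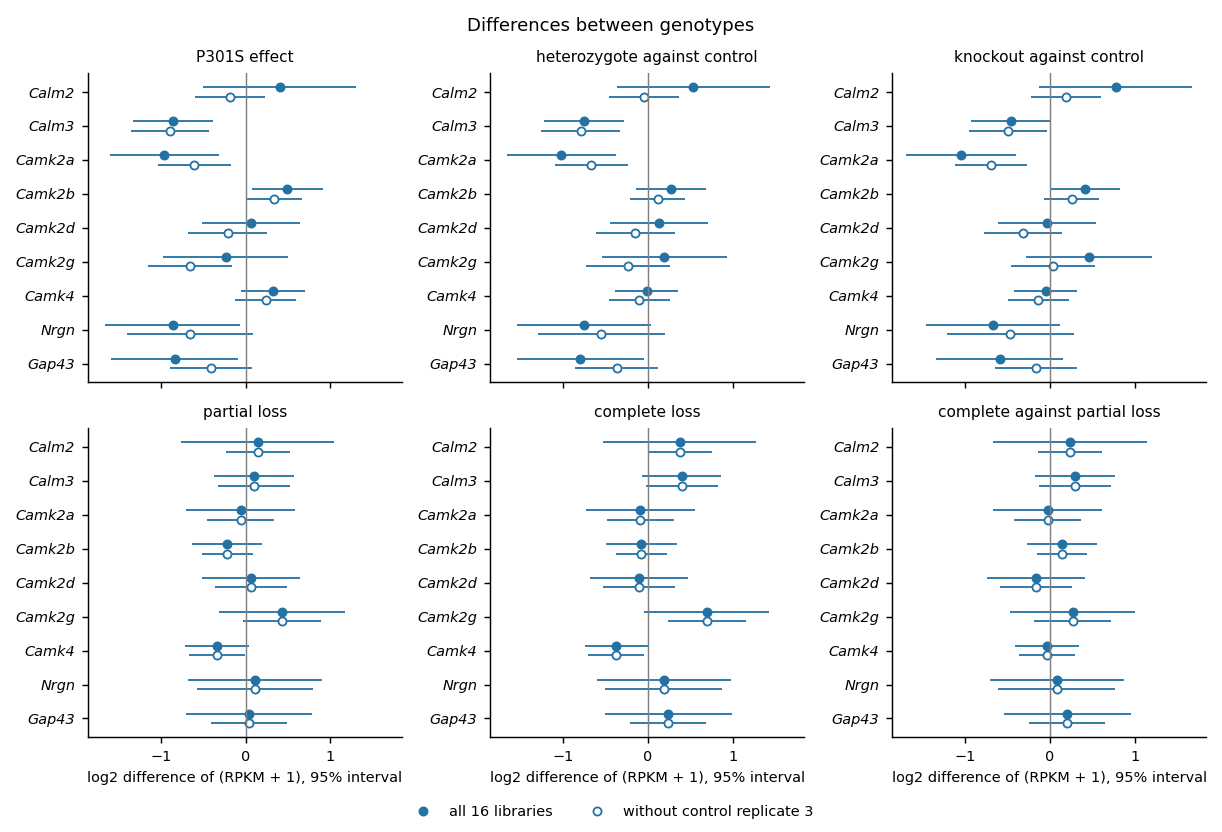
Log2 differences of (RPKM + 1) with 95% intervals (horizontal axes) for the 9 genes in 6 comparisons, with filled symbols for all 16 libraries and open symbols without control replicate 3. In the upper row Calm2 moves from 0.40 to -0.18 and Camk2a from -0.96 to -0.60 in the P301S effect when that library is left out; in the lower row the differences stay and the intervals narrow.

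The females and males of the control group differed for several members, and so did the P301S effect by sex as a description. For Camk2a the log2 difference from control was -1.57 in females and -0.35 in males, for Nrgn -1.44 and -0.28, for Gap43 -1.43 and -0.24, and for Calm3 -1.13 and -0.58. One of the 2 control females is control replicate 3, and without it the female differences were -1.01 for Camk2a, -1.21 for Nrgn, -0.61 for Gap43 and -1.42 for Calm3, each against 1 control female. The test of a sex difference called 0 of 9 members for the P301S effect beside 0.00832% of all genes. For partial and for complete loss it called 0 of 9 beside 0.0% and 0.0%. Control replicate 3 is in neither of these 2 comparisons but enters their estimate of the spread. Without it the SE of the gap between the sexes went from 0.78 to 0.26 for Calm2 in partial loss. For Camk2g in complete loss it went from 0.62 to 0.33. The counts of 0 with all libraries therefore do not show that no gene differed by sex. Without control replicate 3 the test called 385 of 11972 genes for partial loss and 568 for complete loss, and 0 of 9 members in each. The lowest limma adjusted p of a member was then 0.079 (Calm2, partial loss) and 0.157 (Camk2g, complete loss). The tau groups compared there kept 2 females and 2 males per genotype. When control replicate 2 was left out, control replicate 3 was the only control female; then the count was 5 of 9 for the P301S effect, beside 41.7% of all genes. It was 0 of 9 beside 2.42% without control replicate 3. The P301S effect is a contrast the members were selected on, so nothing is read from these counts.

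Ratios between 2 genes of 1 library do not move with library size. Their absolute size carries the gene lengths used for scaling, so they are read only between libraries. Camk2a to Camk2b was 1.18, 2.28, 7.71 and 1.23 in controls, and 0.827, 0.974, 0.613 and 0.907 in P301S+ TREM2+/+ mice. It was 0.974, 1.05, 1.31 and 0.512 in heterozygotes, and 1.096, 0.858, 0.562 and 0.815 in knockouts. All controls lay above all P301S+ TREM2+/+ and knockout libraries, the nearest at 1.18 and 1.096, and heterozygote replicate 3, at 1.31, lay above 2 controls. Both genes were selected with these contrasts known, and no background share was taken over other pairs of genes, so this is a description. Calm2 to Calm3 ranged from 1.58 to 11.6 in controls, from 9.02 to 18.7 in P301S+ TREM2+/+ mice, from 10.8 to 14.9 in heterozygotes and from 8.68 to 16.2 in knockouts. Here too the control extreme was replicate 3, and without it the control range began at 5.08.

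Nrgn to Gap43, the dendritic against the axonal IQ-motif protein, had similar ranges in all genotypes: 6.03 to 14.5 in controls, 6.09 to 15.2 in P301S+ TREM2+/+ mice, 3.68 to 15.7 in heterozygotes and 4.17 to 14.5 in knockouts. Camk2d to Camk2g ranged from 0.168 to 0.339, 0.215 to 0.662, 0.183 to 0.337 and 0.0995 to 0.269 in the same order. Among tau genotypes, 12 ratio tests (4 ratios, 3 pairs) were run as two-sided exact permutation tests, whose smallest possible p with 4 mice against 4 is 0.029. None passed: the lowest exact p was 0.143, for a log2 difference of -0.82 in Camk2d to Camk2g between knockouts and P301S+ TREM2+/+ mice, and the adjusted p was 0.971 for all 12.

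**Figure D3:**
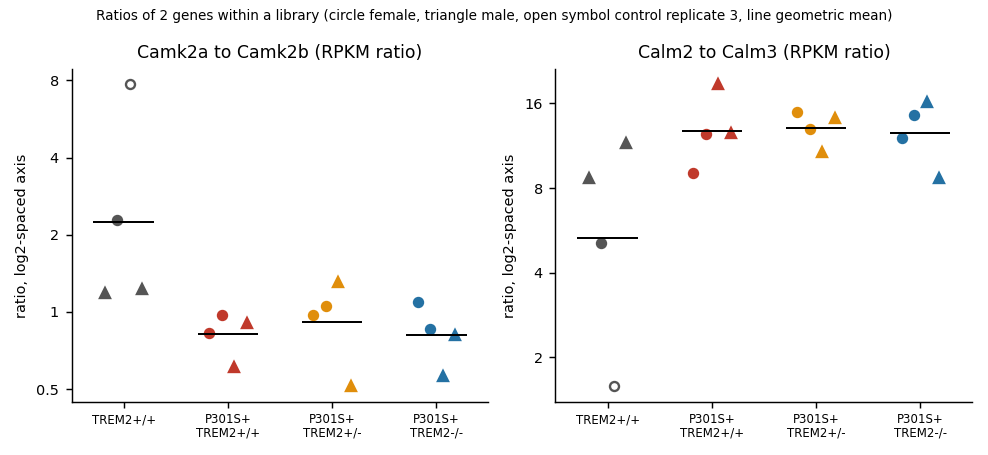
Ratio of RPKM of Camk2a to Camk2b (left) and of Calm2 to Calm3 (right) in each library by genotype, on an axis spaced by log2, with circles for females, triangles for males, an open symbol for control replicate 3 and a line at the geometric mean. The Camk2a to Camk2b ratio lies between 0.512 and 1.31 in the tau mice and between 1.18 and 7.71 in controls, and Calm2 to Calm3 is lowest in control replicate 3 (1.58).

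In reads, the 4 CaMKII genes together took 0.307% to 0.745% of a control library, 0.278% to 0.317% of a P301S+ TREM2+/+ library, 0.248% to 0.339% of a heterozygous library and 0.274% to 0.320% of a knockout library. Camk2a gave 52.2% to 89.2% of these reads in controls (52.2% to 68.3% without replicate 3). It gave 38.5% to 51.2% in P301S+ TREM2+/+ mice, 34.5% to 54.4% in heterozygotes and 35.9% to 51.1% in knockouts. The range of the heterozygotes overlapped that of the controls, and those of the other tau genotypes did not. As for the ratio, this describes contrasts known when the genes were selected. The 9 members took 1.15% to 2.11% of reads in controls, 0.919% to 1.26% in P301S+ TREM2+/+ mice, 0.855% to 1.43% in heterozygotes and 1.07% to 1.37% in knockouts.

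**Figure D4:**
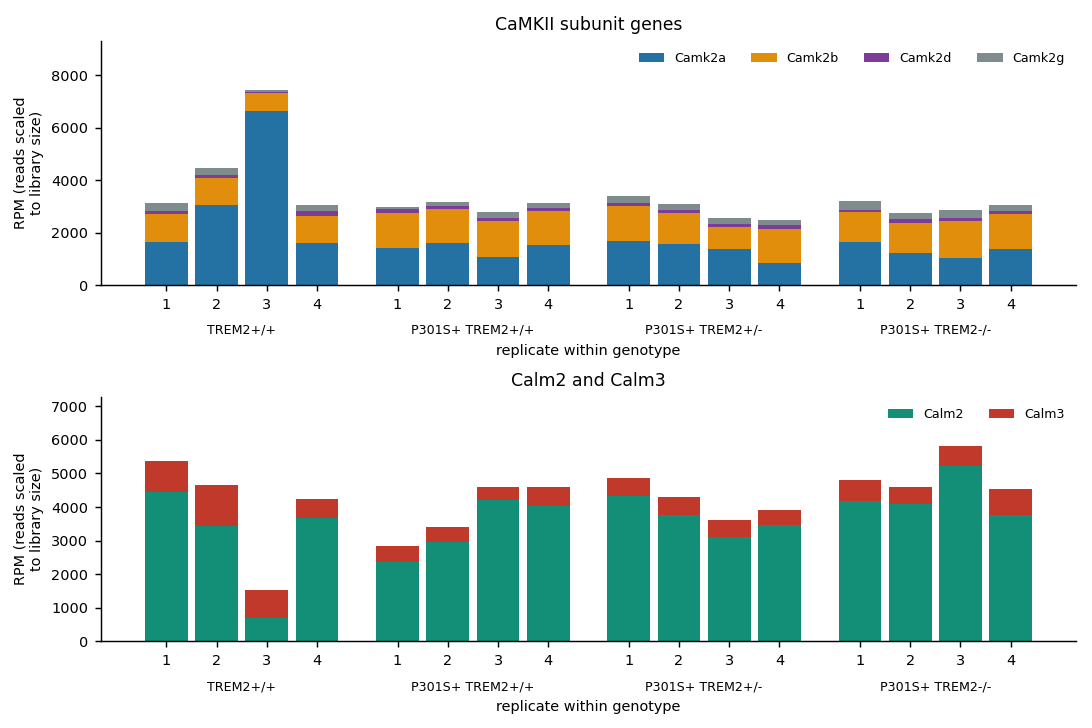
RPM (reads scaled to library size, vertical axes, from 0) given to the CaMKII subunit genes (top) and to Calm2 and Calm3 (bottom) in each library, stacked by gene, with replicates in order within each genotype. Control replicate 3 stands out in both panels, with Camk2a at 89.2% of its CaMKII reads and Calm2 and Calm3 at 0.151% of all reads.

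The members differed in how much they varied within the 12 tau libraries, where no genotype difference passed. Camk2b was the steadiest, with a coefficient of variation of 12.9%, and 17.2% of all genes tested varied less. Nrgn was the most variable, at 33.0%, with 79.9% of genes below it, followed by Camk2g at 27.1% and Gap43 at 23.2%. The other 5 members lay between 18.9% and 21.2%, near the median of all genes, 20.6%. The highest tau library held 3.48 times the lowest for Nrgn and 1.74 times for Camk2b.

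Across the 15 libraries without control replicate 3, Camk2a and Nrgn had similar profiles (Pearson's r = 0.89 on the log2 scale, and 0.90 with all 16), as a description over libraries that share depth, tissue composition and processing. The genes with profiles nearest to Camk2a were Nell2 (0.94), Cadm3 (0.91), Tmem14a (0.90), Rab6b (0.90) and Iqsec2 (0.89), and Nrgn was sixth. Those nearest to Nrgn were Car10 (0.94), Cpne9 (0.94), Brsk1 (0.93), Dact2 (0.93) and Lingo1 (0.92). Camk2a against Calm3 gave 0.69 over 15 libraries and 0.61 over 16. Other pairs depended on control replicate 3: Camk2a against Gap43 gave 0.09 without it and 0.70 with it, against Camk2b -0.39 and -0.73, and against Calm2 -0.18 and -0.78.

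Other genes of the pathway came from 7 lists of 54 genes: other calmodulin kinases, CaMKII inhibitors and regulators, calcineurin and its regulators, other small calmodulin- or lipid-binding proteins, calmodulin-regulated enzymes and pumps, synaptic anchors and substrates of CaMKII, and transcription partners of CaMKIV. All 54 were in the files and 50 passed the filter on low values (Adcy8, Nos1, Grin2a and Mef2d did not). None of the 50 was called in either direction in any of the 6 comparisons. Positive and negative log2 differences numbered 29 and 21 for the P301S effect, 25 and 25 for heterozygotes and 26 and 24 for knockouts against controls. They numbered 19 and 31 for partial loss, 22 and 28 for complete loss and 26 and 24 between knockouts and heterozygotes. Without control replicate 3 the 50 again held 0 calls in each comparison, and the numbers against control became 21 and 29, 21 and 29, and 17 and 33. Without both P301S+ TREM2+/+ females as well they were 26 and 24 for the P301S effect, 14 and 36 for partial and 19 and 31 for complete loss.

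Dlg4, which encodes the postsynaptic scaffold PSD-95, had the largest difference of the lists in the P301S effect. It measured 116 ± 40.5 RPKM in controls and 48.2 ± 4.99 in P301S+ TREM2+/+ mice (SD, n = 4), a log2 difference of -1.20 ± 0.29 (SE), and control replicate 3 was within the control range at 116 RPKM. Every control lay above every P301S+ TREM2+/+ mouse, at 76.1 RPKM or more against 53.5 or less. Groups did not overlap for 4.83% of all genes in that contrast, and the limma adjusted p of Dlg4 was 0.265. Ppp1r1b, the phosphatase inhibitor DARPP-32 of striatal neurons, followed at 0.99, and Pde1b, a calmodulin-dependent phosphodiesterase, at 0.99. For both of these genes too the groups did not overlap, with every P301S+ TREM2+/+ library above every control. The summed level of 7 striatal markers ranged from 188 to 893 RPKM in controls, 511 to 1136 in P301S+ TREM2+/+ mice, 184 to 1088 in heterozygotes and 295 to 1444 in knockouts, with Drd2 at 0 in some libraries of each group, and its part in these 2 values was not tested.

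For heterozygotes against controls the largest were Camkk1 (0.89), the kinase upstream of CaMKI and CaMKIV, Camk1g (-0.84) and Camkv (-0.84), a pseudokinase. In control replicate 3 Camkk1 was at 1.94 RPKM, Camk1g at 78.2 RPKM and Camkv at 477 RPKM, each the extreme of its group. Without that library the differences were -0.21 for Camkk1, which changed sign, -0.25 for Camk1g and -0.26 for Camkv. For knockouts against controls they were Camk1 (-1.07), Crtc1 (-0.92), a coactivator of CREB, and Camkk1 (0.89), and control replicate 3 was again the extreme of the controls for each. Without it they were -0.54, -0.48 and -0.21, so that Camkk1 changed sign here too.

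For partial loss the largest were Pcp4l1 (-0.76), an IQ-motif protein, Ppp1r1b (-0.76) and Actn2 (-0.73), an actinin, and all had a limma adjusted p of 0.9996. For complete loss they were Pcp4l1 (-0.95, adjusted p = 0.555), Grin1 (-0.74, adjusted p = 0.426) and Dlg4 (0.71, adjusted p = 0.447). Grin1, the obligatory NMDA receptor subunit, measured 31.0 ± 5.46 RPKM in P301S+ TREM2+/+ mice and 18.3 ± 4.58 in knockouts (SD, n = 4). Its groups did not overlap, as for 7.62% of all genes in complete loss. Those of Pcp4l1 did not overlap either (42.0 to 101.5 RPKM in knockouts, 105.1 to 240.0 in P301S+ TREM2+/+ mice), and those of Dlg4 did. Between knockouts and heterozygotes they were Ppp3cc (0.45), a calcineurin catalytic subunit, Ppp1r1b (0.43) and Camk1 (-0.42), each with a limma adjusted p of 0.9999. The 6 choroid plexus markers summed to 215 to 1781 RPKM in P301S+ TREM2+/+ mice, 68.65 to 596 in heterozygotes and 124 to 991 in knockouts. Their median log2 difference was -0.77 for partial loss (0 positive, 6 negative) and -0.74 for complete loss (1 positive, 5 negative). For 6 striatal markers it was -0.71 (0 positive, 6 negative) and -0.14 (3 positive, 3 negative) in the same order. The part of these markers in the values above was not tested.

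Neuronal marker sums overlapped between controls and each tau genotype. The 10 pan-neuronal markers summed to 4337 to 4705 RPKM in controls, 3650 to 4430 in P301S+ TREM2+/+ mice, 3392 to 4445 in heterozygotes and 3875 to 4613 in knockouts. The 10 excitatory neuron markers summed to 456 to 589, 346 to 531, 329 to 640 and 484 to 684 RPKM in the same order. Heterozygote replicate 4, with the lowest Camk2a (160 RPKM) and Nrgn (1194 RPKM) of all libraries, also had the lowest of both sums, at 3392 and 329 RPKM. The 8 oligodendrocyte markers summed to 545 to 708 RPKM in controls, 685 to 955 in P301S+ TREM2+/+ mice, 787 to 949.7 in heterozygotes and 817 to 1197 in knockouts, so that heterozygotes and knockouts lay above all controls. The 10 microglial markers summed to 304 to 1144, 423 to 684, 278 to 1116 and 287 to 639 RPKM in that order. No gene of these 4 lists was at 0 in any library, and the part of cell composition in the members' values was not tested.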

How the data were processed

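Cortical RNA of 16 mice was sequenced from transcript 3' ends, per the labels' protocols. STAR, HTSeq, edgeR, limma and mm10 are named in the submitters' processing notes, without roles. The authors deposited RPKM per gene and library, per the file headers. Versions and strand settings are not given in the sources used here. Dividing by gene length does not suit 3' reads, so differences between genotypes were taken within a gene. Sums and ratios of different genes are read only between libraries. Whole reads were recovered for depth (2552467 to 14473181). 1 nameless line per file was empty.

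Limma 3.58.1 (R 4.3.3, trend) was fitted to log2(RPKM + 1) for the 12015 genes whose mean RPKM reached 1, with genotype and sex over 16 libraries (11 residual degrees of freedom; 8 for sex differences); the pseudocount of 1 understates low genes' changes. P-values were adjusted by Benjamini-Hochberg over all genes (threshold 0.05), and the script was tested on simulated data. Ratios used exact permutation tests (scipy 1.17.1), adjusted over 12. The plan foresaw RPKM or whole reads. Limma p-values set each difference against a spread between mice that is pooled over the 4 genotypes and drawn toward that of other genes. Control replicate 3 therefore entered the spread used for the tau comparisons.

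Members, lists and tests were chosen with earlier results of these data known. Named genes were the 9 members, pathway genes that passed or else the 3 largest differences per comparison, and the 5 profiles nearest to Camk2a and to Nrgn. Alternatives were another pseudocount (0.1), no low filter, no sex term, pairs of genotypes alone, array weights, TMM, voom and each library left out. Pathway genes and sex differences without control replicate 3, and every value without the 3 libraries that stood apart, were added after seeing the data. Without those 3 libraries the P301S+ TREM2+/+ group is 2 males, compared with groups of both sexes through the sex term. Some genes and sequences are not reported here.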

Additional observations from a re-analysis of the deposited data

Results flagged for a closer look

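Of 36 sets of 4 values (9 genes in 4 genotypes), 3 held a value far from the other 3, where chance gives about 1 in 20. Camk2b was 161.0 RPKM in control replicate 3, the lowest of the controls, with the next at 245.0 RPKM. Gap43 was 1237 RPKM in the same library, the highest of the controls, with the next at 431 RPKM. Calm3 was 201 RPKM in heterozygote replicate 4, with the other heterozygotes between 237 and 239 RPKM.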

How the results depend on the processing

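With array weights the number of members called was 1 for complete loss (Camk2g, 0.78). In the contrasts with control, on which the members were selected and where such counts are no test, it was 1 for the P301S effect and 2 for heterozygotes with array weights and 1 for heterozygotes with voom quality weights; all other counts stayed at 0 with no library left out. Camk2a between knockouts and heterozygotes was 0.040 with array weights and 0.015 with voom quality weights. Without control replicate 3 and both P301S+ TREM2+/+ females, partial loss gave -0.018 for Camk2g, -0.184 for Calm2, -0.018 for Calm3, -0.16 for Nrgn and -0.15 for Gap43, complete loss gave 0.003 for Camk2d and -0.082 for Nrgn, and the P301S effect was -0.23 for Gap43. With each library left out in turn, members with a sex difference numbered 0 to 5, the 5 without control replicate 2, where control replicate 3 is the lone control female and is assumed to vary like the others. Other log2 differences that changed sign with a library left out did not pass the test with all libraries. For partial loss they ranged from -0.20 to 0.10 for Camk2a, -0.045 to 0.23 for Camk2d, -0.034 to 0.31 for Calm2, -0.09 to 0.40 for Nrgn, -0.18 to 0.26 for Gap43, -0.13 to 0.22 for Calm2 to Calm3, -0.22 to 0.48 for Nrgn to Gap43 and -0.02 to 0.43 for Camk2a to Camk2b. For complete loss they ranged from -0.24 to 0.074 for Camk2a, -0.30 to 0.064 for Camk2d, -0.011 to 0.47 for Nrgn, -0.16 to 0.16 for Camk2a to Camk2b, -0.35 to 0.25 for Nrgn to Gap43 and -0.19 to 0.16 for Calm2 to Calm3. Between knockouts and heterozygotes they ranged from -0.18 to 0.12 for Camk2a, -0.045 to 0.24 for Camk2b, -0.11 to 0.095 for Camk4, -0.21 to 0.36 for Nrgn, -0.53 to 0.18 for Nrgn to Gap43, -0.45 to 0.006 for Camk2a to Camk2b and -0.19 to 0.11 for Calm2 to Calm3. No paired analysis was possible because the labels give no numbers or animals that pair mice across genotypes.

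There were 4 mice per genotype, 1 control library stood apart, and genotype is confounded with any batch that followed it. The 95% intervals of tau differences are wide. For Camk2a in partial loss the interval was -0.70 to 0.58 with all libraries and -0.45 to 0.33 without control replicate 3. Differences inside these intervals are not excluded. The cause of each change above was not tested.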
